A study of Mus musculus with 3 samples.

Results

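The synaptic vesicle release machinery was followed here as a set of genes chosen by their symbols: the synaptotagmins (Syt), synapsins (Syn1 to Syn3), syntaxins (Stx) and syntaxin binding proteins (Stxbp), the Snap and Vamp genes, complexins (Cplx), SV2 glycoproteins, the Rab3 genes, RIMs (Rims), Munc13 factors (Unc13), synaptophysin (Syp), synaptoporin (Synpr) and synaptogyrins (Syngr). The pattern matched 101 symbols, and 88 of them had at least 30 unique molecular identifiers (UMIs) over the 3 libraries, against 13806 of 31053 genes in the whole series. Because the pattern took every symbol with these beginnings, it also caught genes of other function. These are the Snapc genes, which encode the complex that starts small nuclear RNA transcription, and the RAB30 to RAB39 GTPases. They were kept as a separate class of 14 measured genes.

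The 13 matched genes below the minimum were Stx11 with 28 UMIs, Vamp8 with 22, Stx19 and Rab38 with 19 each, Cplx3 with 18, Rab37 with 7, Syngr2 and Syngr4 with 4 each, Syt15 and Rab32 with 3 each, Vamp5 with 1, and Syt8 and Cplx4 with 0. Just above it were Rab39 with 42 UMIs and Syt12 with 56. The measured genes were sorted by role into 15 synaptotagmins, 5 release SNAREs, 7 SNARE regulators, 16 priming and active zone genes, 11 vesicle proteins, 20 SNAREs and partners of general membrane traffic, and the 14 genes matched by name only. A core of 26 textbook release genes cuts across these classes.

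Transmitter release begins when a vesicle docks at the active zone, a protein scaffold in which RIM proteins hold RAB3-bearing vesicles near calcium channels. Munc13 proteins then prime the vesicle by helping VAMP2 on the vesicle zip together with a syntaxin and SNAP25 on the plasma membrane, while complexins bind the SNAREs and set their readiness. Calcium entering the terminal acts on synaptotagmin-1 or a fast relative, and the membranes fuse. The expression of these genes in developing neurons accompanies axon growth and the making of synapses.

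The neocortex of Sst-Cre; RCEloxP mice was dissected at embryonic day 16.5 (E16.5) and postnatal days 1 and 5 (P1 and P5). Every library came from the genotype SstCre/+;RCEfl/+, in which Cre expressed from the Sst locus switches on a GFP reporter in SST+ neurons and in any cell that expressed Sst earlier. Tissue of 6 animals was pooled at E16.5 and of 3 animals at P1 and at P5, GFP+ DAPI-negative cells were sorted, and each stage gave 1 single-cell library. All tissue was digested with pronase, while trypsin and DNAse were added at P5 alone and percoll was used at P1 and P5. There was therefore no replicate of a stage, and stage, library, dissociation and depth cannot be told apart. No test between stages or between populations was possible, and all intervals are 95% intervals that cover counting error only.

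Cells with over 700 genes and under 10% mitochondrial UMIs were kept, which left, in stage order, 3952 of 4478, 2501 of 4440 and 2980 of 3406 cells, from files holding 25638779, 15654107 and 13429055 UMIs. Cell barcodes shared between libraries numbered 3 for E16.5 and P1, 1 for E16.5 and P5 and 6 for P1 and P5. Cells with Lhx6, a transcription factor of neurons born in the medial ganglionic eminence, and no Nos1 UMI are called Lhx6 cells here, and in stage order there were 3269, 1606 and 1874 of them. Cells with at least 1 Nos1 UMI are called Nos1 cells and numbered 67, 434 and 547, of which 73.1%, 82.9% and 71.7% also held an Lhx6 UMI. Nos1, neuronal nitric oxide synthase, is a marker of SST+ long-range projection (LRP) neurons. The median depth in the 3 libraries was 5808, 3811 and 4752.5 UMIs per Lhx6 cell and 7863, 3704.5 and 3073 UMIs per Nos1 cell.

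The labels of both populations were checked against markers. Of the LRP markers, neuropeptide Y (Npy) was at 12366, 24679 and 34619 CPM (counts in every 1000000 UMIs of the group) in Nos1 cells from E16.5 to P5, and at 1635, 1208 and 816 CPM in Lhx6 cells. Chodl was at 42.1, 284 and 399 CPM in Nos1 cells against 7.21, 12.1 and 7.13 CPM in Lhx6 cells. Tacr1, Pou3f2 and Crhbp, at 169, 282 and 316 CPM in Nos1 cells at P5 against 2.81, 11.6 and 115 CPM in Lhx6 cells, were also higher in Nos1 cells in each of the 3 libraries. The 8 excitatory neuron genes summed to 8.90, 9.74 and 2.92 CPM in Lhx6 cells but to 675, 162 and 6.62 CPM in Nos1 cells. In stage order, 23.9%, 5.30% and 0.731% of Nos1 cells held a UMI of an excitatory marker, against 1.19%, 1.74% and 0.587% of Lhx6 cells. At P5 Slc17a6, Neurod1 and Emx1 were at 0 UMIs in Nos1 cells, and immune and vascular markers stayed at or below 3.57 CPM in both populations.

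The sequence just upstream of the gene is shown for Synpr and Unc13c, which rose the most, for Syt6, which set the Nos1 cells apart, and for Syn1, a core gene picked after its motif matches were seen, to give the regulatory stretch in front of the transcripts that were counted. The windows are the 250 bases before the RefSeq start in GRCm38.p6, cut where they would run into the GENCODE gene, and they read 5′ to 3′ on the strand of the gene. Of the 88 measured members, 68 had a RefSeq promoter. Letters in capitals mark matches on either strand to the half-site of RE1 (TCAGCACC), the cAMP response element (TGACGTCA), the NRF1 core (GCATGCGC), the SP1 box (GGGCGG) or the E-box CACGTG, and no marked match overlaps another. Syn1 lies on chrX:20860511-20921004, minus strand, and its stretch is chrX:20921005-20921168. Synpr lies on chr14:13284780-13616340, plus strand, with the stretch chr14:13284530-13284779. Unc13c lies on chr9:73479422-73968966, minus strand, with the stretch chr9:73969038-73969287. Syt6 lies on chr3:103575231-103645569, plus strand, with the stretch chr3:103574995-103575230.
Syn1: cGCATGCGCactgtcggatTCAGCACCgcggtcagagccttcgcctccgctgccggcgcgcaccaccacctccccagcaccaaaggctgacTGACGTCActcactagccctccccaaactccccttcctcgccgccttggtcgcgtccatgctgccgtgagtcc
Synpr: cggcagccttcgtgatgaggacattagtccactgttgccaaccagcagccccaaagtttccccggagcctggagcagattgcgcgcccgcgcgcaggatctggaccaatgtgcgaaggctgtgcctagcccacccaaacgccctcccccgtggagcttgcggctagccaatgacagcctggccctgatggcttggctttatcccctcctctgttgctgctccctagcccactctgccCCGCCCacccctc
Unc13c: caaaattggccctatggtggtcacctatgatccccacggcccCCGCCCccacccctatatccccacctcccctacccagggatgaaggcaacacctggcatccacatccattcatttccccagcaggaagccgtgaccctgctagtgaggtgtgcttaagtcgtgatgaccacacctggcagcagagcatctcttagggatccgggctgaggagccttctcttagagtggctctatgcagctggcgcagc
Syt6: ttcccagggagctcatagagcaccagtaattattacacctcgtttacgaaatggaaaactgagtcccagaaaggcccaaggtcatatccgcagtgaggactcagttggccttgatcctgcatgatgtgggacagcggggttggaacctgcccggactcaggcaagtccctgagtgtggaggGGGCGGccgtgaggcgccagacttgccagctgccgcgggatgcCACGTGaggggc

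The Syn1 stretch held an NRF1 core beginning 249 bases, an RE1 half-site 231 bases and a cAMP response element 159 bases before the RefSeq start. The RE1 half-site is part of the element to which the repressor REST binds, and it was found in 1.32% of all 32851 promoter windows of that length, in 1.33% of those of genes tested in these cells and in 2.27% of the 88 windows of the measured members. In the same order the cAMP response element was in 1.55%, 2.61% and 3.41% of windows, and the NRF1 core in 2.26%, 4.24% and 6.82%. Synpr, Unc13c and Syt6 held an SP1 box, beginning 13, 208 and 69 bases before the start, a motif present in 32.7%, 56.5% and 65.9% of these windows. Syt6 also held the E-box, found in 6.02%, 8.06% and 12.5%, 26 bases before its start. These are matches of letters and say nothing of binding.

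The first question was how release genes moved in developing interneurons from E16.5 to P5. In Lhx6 cells 39 of 88 measured members were past 2-fold higher in the P5 library than in the E16.5 library, and 6 were past 2-fold lower, where 2-fold is a log2 ratio of 1 computed on CPM + 1. Over all genes tested 18.4% were past 2-fold higher and 12.5% past 2-fold lower. The median log2 ratio was 0.73 for the members and 0.06 for all genes. Of the 26 core genes 19 rose and none fell, with a median log2 ratio of 1.81. The summed level of the core was 3383, 5671 and 11076 CPM in stage order. In the same Lhx6 cells the summed level of 9 stress and dissociation genes was 1193, 1018 and 763 CPM. Calr, Hsp90b1 and Hspa5, the largest of them at E16.5, were lower at P5 than at E16.5, while Jun, Ddit3 and Atf4 were higher. The part of these 9 genes in the result was not tested.

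**Figure D1:**
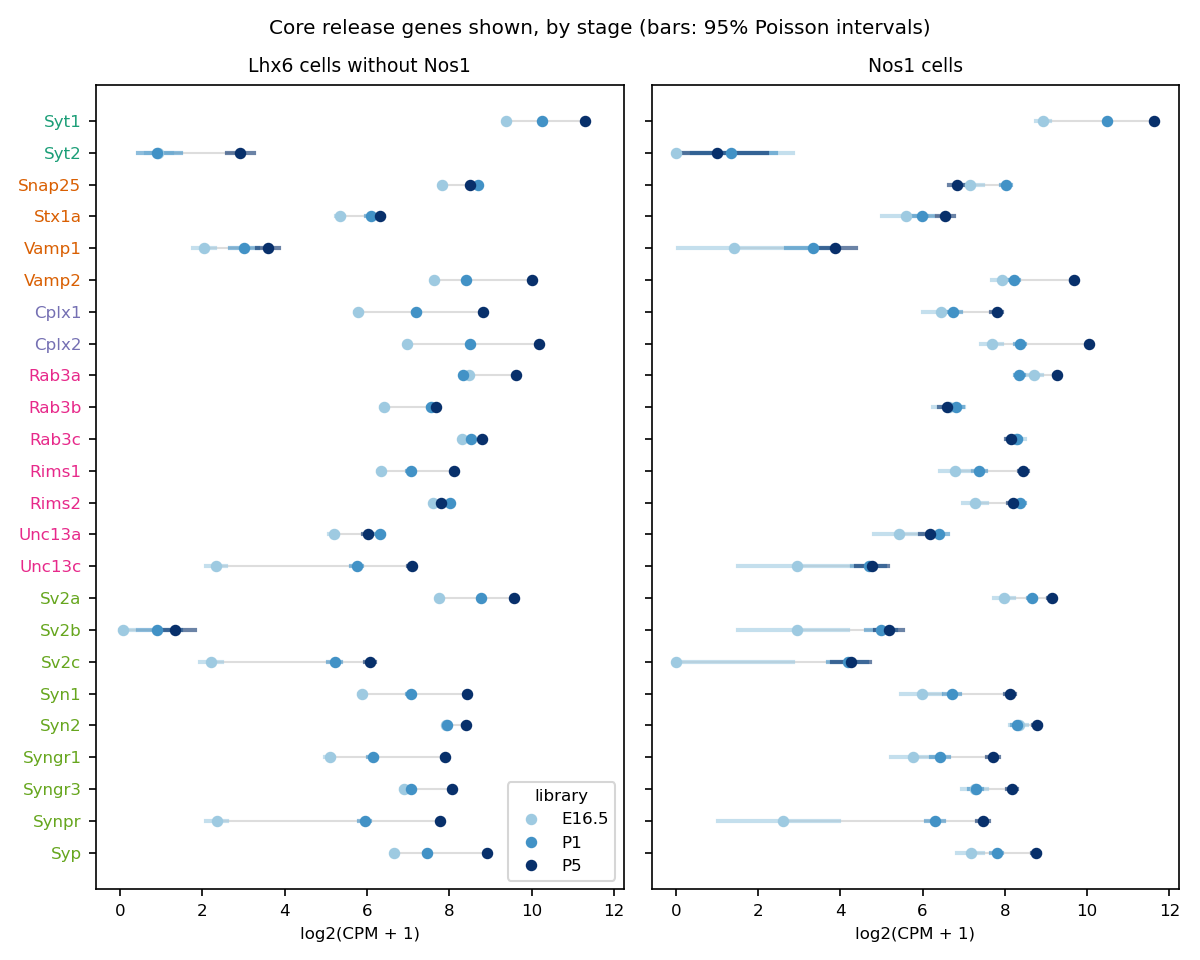
The levels of 24 of the 26 core release genes in Lhx6 cells (left) and Nos1 cells (right), as log2(CPM + 1) on the horizontal axis, with 1 point per library (E16.5, P1, P5) and bars for exact 95% Poisson intervals. For Syt1, Vamp2, Cplx2 and Syn1 the P5 point is the rightmost of the 3 in both panels, while for Snap25 it is the P1 point.

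Synaptotagmin-1 (Syt1), the calcium sensor of fast synchronous release, stood at 663 CPM in the E16.5 library, 1222 CPM at P1 and 2531 CPM at P5 in Lhx6 cells, with a 95% Poisson interval of 2499 to 2564 at P5. The E16.5 library was the lowest and the P5 library the highest, and the log2 ratio of P5 over E16.5 was 1.93 (1.90 to 1.96). Intervals of ratios are for CPM without the added 1, so a ratio of a low gene can lie at their edge. Syt2, the fast sensor of many adult fast-spiking interneurons, was barely counted at E16.5 and P1, at 0.895 and 0.874 CPM, and reached 6.59 CPM at P5.

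Of 15 measured synaptotagmins, 11 rose from E16.5 to P5 and 1, Syt6, fell, beside 18.4% and 12.5% of all genes tested. Syt17, a relative of the family without its membrane anchor, was at 3.67, 26.6 and 42.7 CPM, a log2 ratio of 3.22 (3.18 to 3.91). Syt5 and Syt14 did not pass, with 82.0, 110 and 79.0 CPM for Syt5 and 42.3, 48.6 and 46.8 CPM for Syt14. Syt6 was at 19.1, 7.37 and 6.48 CPM, so the fall lay between the E16.5 and P1 libraries, with a log2 ratio of -1.26 for that step.

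Among the release SNAREs, Vamp2 and Vamp1 rose and Snap25 and Stx1a did not pass. Vamp2, the vesicle SNARE, was at 196, 340 and 1031 CPM in the E16.5, P1 and P5 libraries, a log2 ratio of 2.39 (2.35 to 2.45) over the whole interval. Stx1a, a syntaxin of the plasma membrane, at 39.9, 67.2 and 79.0 CPM, had a log2 ratio of 0.97 and stayed just inside the 2-fold line. Vamp1 rose at a low level, from 3.11 to 7.12 and 11.1 CPM.

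Snap25 (chr2:136713453-136782428, plus strand), the third partner of the fusion complex, did not follow Vamp2. In stage order its levels in Lhx6 cells were 227, 415 and 364 CPM. The highest of the 3 libraries was thus P1, and the log2 ratio was 0.87 (0.81 to 0.93) for P1 over E16.5 and -0.19 (-0.26 to -0.12) for P5 over P1, and 0.00 for that step when cells were averaged in place of summed. Neither step reached 2-fold.

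The SNARE regulators were led by the complexins, small proteins that clamp and promote fusion. Cplx1 was at 54.3, 146 and 452 CPM and Cplx2 at 125, 363 and 1165 CPM across the 3 libraries. Both rose at each step, with log2 ratios over the whole interval of 3.03 (2.96 to 3.15) and 3.21 (3.16 to 3.28). Cplx2 belongs to a list the study drew from these cells for Martinotti cells (MCs), the SST+ interneurons whose axons climb to the uppermost layer, so its change is not independent evidence for that list.

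In the priming and active zone class 7 of 16 members rose and none fell, beside 18.4% and 12.5% of all genes tested. The median log2 ratio of the class was 0.74. Unc13c (Munc13-3), a priming factor, made the largest rise of the class. It stood at 4.05, 52.7 and 135 CPM, a log2 ratio of 4.75 (4.74 to 5.39). Unc13a (Munc13-1), the major priming factor of forebrain neurons, was by contrast at 35.5, 78.2 and 63.7 CPM and did not pass over the whole interval, although its rise from E16.5 to P1 did, at 1.12.

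The RIM scaffolds were split in the same way. Rims1 was at 79.6, 133 and 278 CPM, a log2 ratio of 1.79, while Rims2 was at 195, 258 and 220 CPM, a log2 ratio of 0.17. Of the RAB3 vesicle GTPases, Rab3a was at 359, 321 and 792 CPM and rose between P1 and P5 by 1.30, Rab3b was at 84.0, 187 and 203 CPM and rose between E16.5 and P1 by 1.14, and Rab3c was at 319, 370 and 444 CPM without passing at either step. Paralogues of the same role therefore had their higher step in different libraries.

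The vesicle proteins held the highest class median, 1.85, and 9 of 11 rose, beside 18.4% of all genes tested. Synpr, a synaptophysin relative, made the largest rise of the measured members, and it was at 4.10, 60.4 and 219 CPM, a log2 ratio of 5.43 (5.43 to 6.06). Synpr and Unc13c, whose upstream stretches are printed above, are both on the study's MC list from these cells. Syn1, a phosphoprotein that tethers vesicles and the gene whose upstream stretch held the RE1 half-site, was at 58.0, 132 and 343 CPM, a log2 ratio of 2.54 (2.47 to 2.66). Syn2 was at 243, 245 and 336 CPM, which did not pass.

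Synaptophysin (Syp), the most used vesicle marker, was at 101, 175 and 485 CPM, a log2 ratio of 2.25 (2.19 to 2.34). The synaptogyrins are relatives of synaptophysin, and Syngr1 rose from 33.1 to 69.3 and 236 CPM while Syngr3 was at 118, 132 and 267 CPM. Of the SV2 glycoproteins, Sv2a was at 213, 438 and 757 CPM and Sv2c at 3.63, 36.2 and 66.5 CPM. Sv2b remained near its counting limit in Lhx6 cells, with 1, 7 and 14 UMIs in the 3 libraries, or 0.0471, 0.874 and 1.51 CPM.

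Among the 20 genes of general membrane traffic 2 rose and 2 fell in Lhx6 cells, beside 18.4% and 12.5% of all genes tested. Their median log2 ratio was -0.16. Stx6, a syntaxin of the trans-Golgi network and endosomes, fell from 83.1 to 64.5 and 28.3 CPM, and Vamp7, a vesicle SNARE used in neurite outgrowth and lysosome fusion, from 74.6 to 36.7 and 28.9 CPM. Stx16, another Golgi syntaxin, was at 87.8, 31.1 and 48.4 CPM and fell by 1.47 on the log2 scale at the earlier step only. Stx3, which serves apical and dendritic membrane insertion, rose from 5.51 to 9.24 and 19.3 CPM.

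The genes matched by name only had a median log2 ratio of 0.13. Among these 14, 2 rose and 3 fell, beside 18.4% and 12.5% of all genes tested. Rab33a, a Golgi and axonal growth GTPase, made the largest fall of the measured members, from 76.8 to 30.1 and 7.99 CPM, a log2 ratio of -3.11 (-3.62 to -2.93). Rab31 was at 31.1, 35 and 9.40 CPM and Snapc3 at 76.8, 47.8 and 27.5 CPM, and both fell over the whole interval. Snapc1 of the same complex was at 35.3, 43.7 and 42.6 CPM and did not pass.

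**Figure D2:**
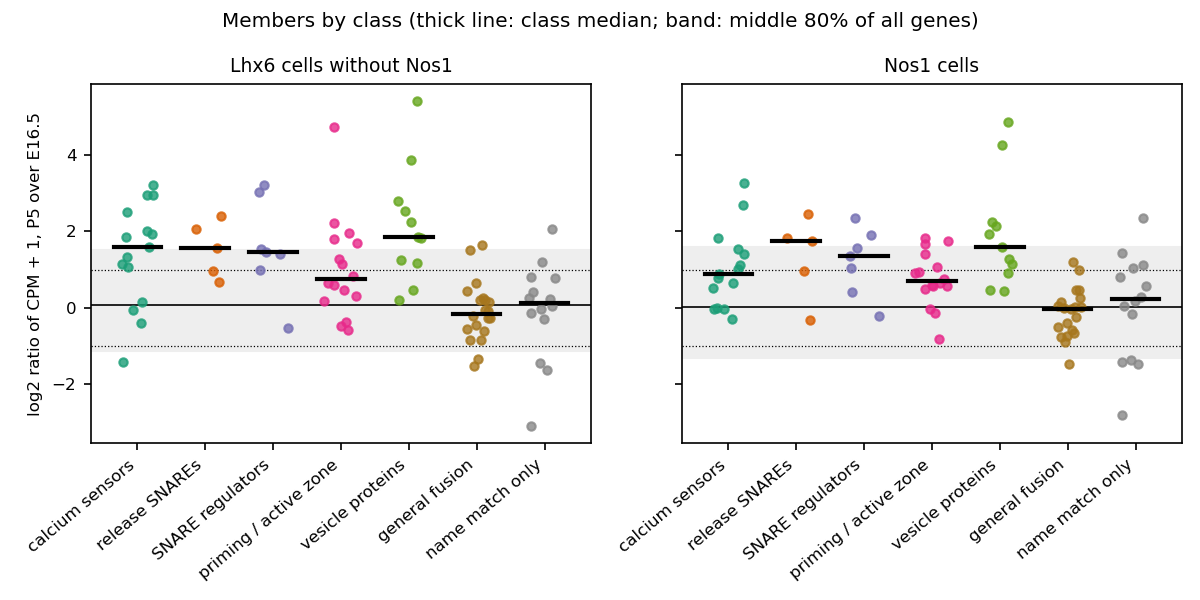
Log2 ratio of CPM + 1, P5 over E16.5, of each measured member (points) by role in Lhx6 cells (left) and Nos1 cells (right). Thick lines are class medians, the grey band spans the middle 80% of all genes tested, and the dotted lines mark 2-fold. The release classes have medians of 0.74 to 1.85 in Lhx6 cells, against -0.16 for general traffic and 0.13 for the genes matched by name only.

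Pathway genes outside the symbol pattern were read in the same cells from a list of 37 measured genes. Of these, 22 rose from E16.5 to P5 and none fell, beside 18.4% and 12.5% of all genes tested. Their median log2 ratio was 1.24. The examples that follow were picked after their values were seen. Sncb (beta-synuclein) was at 120, 178 and 767 CPM, and Dnm1, the dynamin of vesicle recycling, at 56.0, 107 and 359 CPM. The active zone scaffolds Bsn and Pclo went from 41.1 to 130 CPM and from 196 to 620 CPM between E16.5 and P5. Ppfia1, Cadps2 and Ppfia2 were among those that did not pass, with log2 ratios of -0.23, -0.22 and 0.14.

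The interval was then divided at P1. Between E16.5 and P1, 23 of 88 measured members were past 2-fold higher and 4 lower in Lhx6 cells, beside 10.6% and 3.35% of all genes tested, with medians of 0.64 and 0.17. Between P1 and P5, 19 were past 2-fold higher and 4 lower, beside 8.71% and 10.0% of all genes, with medians of 0.30 and -0.09. When the libraries were scaled by the median ratio of all genes, which moves the median log2 ratio of all genes by -0.17 at the earlier step and by 0.10 at the later one, the counts were 13 higher and 6 lower at the earlier step. The share of higher among the calls was then 68.4% in place of 85.2%. The shares of all genes given above are for scaling by totals.

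Both steps use the P1 library, once above and once below the line of the ratio, so the values of each step are given side by side and no overlap is read from them. Cplx1 had log2 ratios of 1.41 at the earlier step and 1.63 at the later, Cplx2 of 1.53 and 1.68, and Syn1 of 1.18 and 1.36. For Synpr they were 3.59 and 1.84, for Unc13c 3.41 and 1.34, and for Syngr1 1.05 and 1.76. Syt13, a synaptotagmin that binds no calcium, was at 1.76 and 1.19. It is named after its values were seen, as are Syt3, Syt9, Syt10, Syt12, Stxbp4, Stxbp6, Snap23, Rab3d and Unc13d.

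Of the 26 core genes 10 were past 2-fold higher at the earlier step and 14 at the later, beside 10.6% and 8.71% of all genes tested. The core medians were 0.87 and 1.03. With the median ratio these counts were 5 and 14, and the 5 genes then inside the line at the earlier step were Syn1, Sv2a, Rab3b, Unc13a and Syngr1, with log2 ratios of 0.98, 0.83, 0.94, 0.92 and 0.84. Vamp2 had log2 ratios of 0.80 and then 1.60, Syp of 0.79 and 1.46, and Syt1 of 0.88 and 1.05. Sv2c showed the opposite order, with 3.01 and then 0.86, and Syt17 with 2.56 and 0.66. Unc13d (Munc13-4), a priming factor of secretory blood cells, was at 0.707, 5.12 and 0.216 CPM, and so rose and fell at a very low level.

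**Figure D3:**
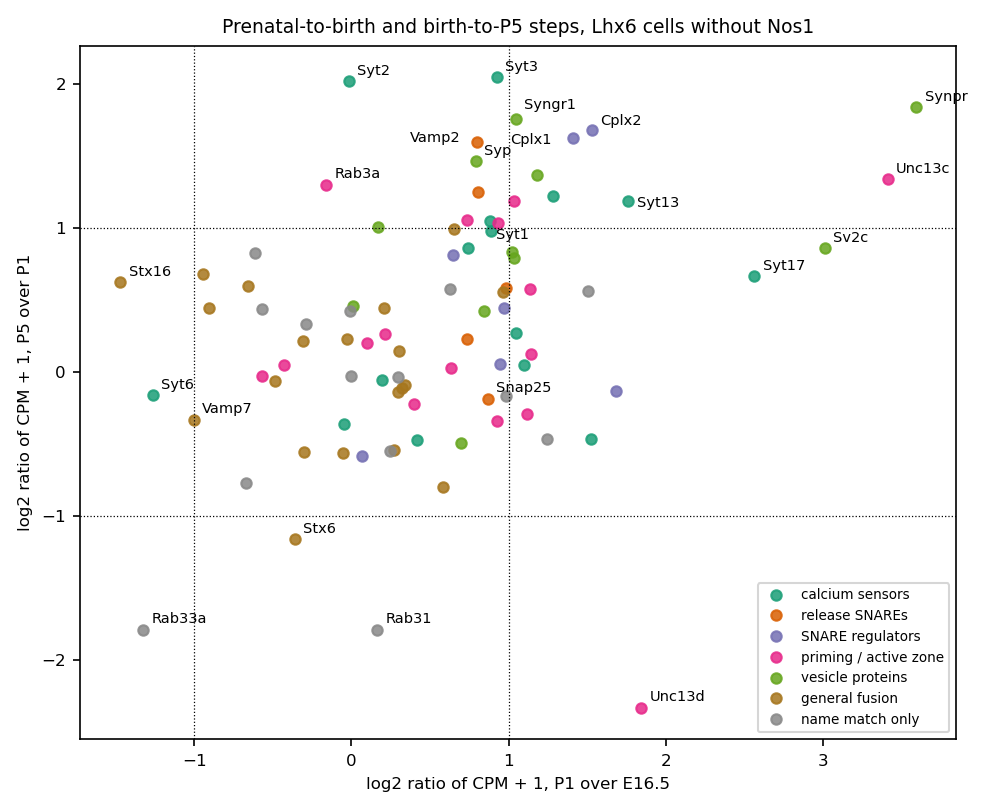
Each measured member in Lhx6 cells by its log2 ratio of CPM + 1 at the earlier step, P1 over E16.5 (horizontal), and at the later step, P5 over P1 (vertical), coloured by role, with dotted lines at 2-fold. Synpr and Unc13c lie past 2-fold on both axes, Vamp2, Syp and Syt1 on the vertical axis only, Sv2c and Syt17 on the horizontal axis only, and Rab33a below 2-fold on both.

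The same interval was read in Nos1 cells, with the reserve that the E16.5 group held 67 cells and 594151 UMIs and carried excitatory markers at 675 CPM. Past 2-fold higher at P5 over E16.5 were 33 of 88 measured members and past 2-fold lower 5, beside 20.6% and 15.4% of all genes tested. The medians were 0.62 for the members and 0.03 for all genes. Of these members 3 higher and 1 lower were at 0 UMIs in a group, and with such genes set at the bound that 3 UMIs allow the median was 0.57. Of the core, 17 of 26 rose and none fell, with a median of 1.47, and 2 of the 17, Sv2c and Syt2, were at 0 UMIs at E16.5. With scaling by the median ratio, which moves the median of all genes by 0.16, 39 members were higher and 5 lower. The 20.6% and 15.4% of all genes are for scaling by totals.

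Syt1 was at 485, 1438 and 3147 CPM in Nos1 cells, a log2 ratio of 2.70 (2.53 to 2.87). Vamp2 was at 242, 299 and 820 CPM, a log2 ratio of 1.75 (1.51 to 2.01), and Cplx2 at 205, 330 and 1060 CPM, a log2 ratio of 2.36 (2.10 to 2.64). All 3 were lowest at E16.5 and highest at P5, as in Lhx6 cells. Syn1, at 62.3, 104 and 277 CPM, and Syp, at 143, 222 and 431 CPM, also rose.

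Other core genes did not pass in Nos1 cells. Rab3b was at 99.3, 111 and 96.3 CPM, Rab3c at 310, 311 and 283 CPM, and Rab3a at 419, 325 and 617 CPM, and none of these passed. Rab33a fell from 67.3 to 28.9 and 8.66 CPM, and Vamp7 from 69.0 to 34.0 and 23.9 CPM, as both did in Lhx6 cells. Sv2c had 0 UMIs at E16.5 and was at 17.3 and 18.3 CPM in the later libraries, at least 3.63-fold higher at P5 than the level of 3 UMIs in the E16.5 group.

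The step with enough Nos1 cells on both sides was P1 to P5, in which 12 measured members were past 2-fold higher and 4 lower, beside 8.79% and 13.5% of all genes tested. The medians were 0.20 for the members and -0.14 for all genes, and scaling by the median ratio, which moves the median of all genes by 0.14, gave 22 higher and 4 lower. The printed shares of all genes are again those under totals. The 12 were Syt1, Vamp2, Cplx1, Cplx2, Syn1, Synpr, Syngr1, Rims1, Syt17, Syt13, Syt3 and Stxbp6. The 4 that fell were Snap25, Rab33a, Rab31 and Unc13d.

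Snap25 was the core gene that fell. In Nos1 cells it was at 141, 261 and 114 CPM, a log2 ratio of -1.19 (-1.43 to -0.97) for P5 over P1. The share of Nos1 cells with a Snap25 UMI was 67.2%, 49.1% and 25.8%, and in cells thinned to 2000 UMIs, which left out 2, 78 and 133 cells, it was 18.5%, 30.9% and 16.9%. In Lhx6 cells the thinned shares were 34.3%, 47.2% and 50.3%, with 169, 291 and 201 cells left out. At P5 the thinned Snap25 shares of the populations lay far apart, with exact binomial intervals of 13.4% to 20.9% and 47.8% to 52.7%, while Vamp2 and Syt1 rose from P1 to P5 in both.

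The next question was how the machinery of Nos1 cells differed from that of Lhx6 cells in the same library. Stage, animals and dissociation are shared there. The 9 stress and dissociation genes summed to 1218 CPM at P1 and 966 CPM at P5 in Nos1 cells. In Lhx6 cells they summed to 1018 and 763 CPM. Median mitochondrial shares were 4.67% and 3.25% in Nos1 cells against 6.27% and 4.35% in Lhx6 cells. Median depth at P5 was 3073 against 4752.5 UMIs. The part of these differences in the ratios was not tested. At P1, 4 measured members were past 2-fold higher in Nos1 cells and 9 lower, beside 4.56% and 3.64% of all genes tested. At P5, 4 were higher and 10 lower, beside 4.16% and 6.43% of all genes. The member medians were -0.04 and -0.05, against -0.03 and -0.07 for all genes. Averaging cells in place of summing them gave 5 higher and 7 lower at P1, or 41.7% higher among the calls in place of 30.8%.

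Higher in both libraries were Syt6, Sv2b and Stx3. Syt6, a synaptotagmin known from acrosome exocytosis in sperm, was at 118, 105 and 115 CPM in Nos1 cells from E16.5 to P5, against 19.1, 7.37 and 6.48 CPM in Lhx6 cells. The groups stood far apart in every library, with log2 ratios of 2.57 (2.24 to 3.00), 3.66 (3.40 to 4.27) and 3.96 (3.73 to 4.59). Its P5 over E16.5 log2 ratio was -0.03 (-0.43 to 0.37) in Nos1 cells and -1.42 (-1.97 to -1.16) in Lhx6 cells. The study listed Syt6 among LRP genes of these cells, and its level here is not independent evidence of that.

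Cells with a Syt6 UMI made up 40.3%, 27.9% and 27.2% of Nos1 cells against 8.41%, 3.30% and 2.56% of Lhx6 cells. In cells thinned to 2000 UMIs the shares were 21.5%, 19.9% and 20.3% against 3.58%, 1.44% and 1.08%. With at least 2 Nos1 UMIs required, the log2 ratio of Syt6 was 4.14 at P1 and 4.18 at P5, and without cells that held an excitatory marker UMI it was 3.76 and 3.96.

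Sv2b (chr7:75114894-75309262, minus strand), an SV2 glycoprotein abundant in excitatory terminals, was at 6.73, 31.0 and 35.7 CPM in Nos1 cells against 0.0471, 0.874 and 1.51 CPM in Lhx6 cells. In Neurod6 cells, the excitatory cells of the same libraries, it was at 6.51, 137 and 258 CPM, and 13, 8 and 0 of these cells were also Nos1 cells. The log2 ratio of Nos1 over Lhx6 cells was 4.09 at P1 and 3.87 at P5, and 3.57 and 4.10 without cells that held any UMI of an excitatory marker. The excitatory markers summed to 162 CPM at P1 and 6.62 CPM at P5 in Nos1 cells, and their part in the Sv2b values was not tested. Thinned shares of cells with an Sv2b UMI were 1.54%, 3.09% and 7% of Nos1 cells and 0.0323%, 0.228% and 0.120% of Lhx6 cells.

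Stx3 was at 16.8, 24.9 and 40.2 CPM in Nos1 cells against 5.51, 9.24 and 19.3 CPM in Lhx6 cells. Its log2 ratio was 1.34 (0.88 to 1.97) at P1 and 1.02 (0.66 to 1.45) at P5, and the P5 call was lost, at 0.83, when Nos1 cells had also to hold an Lhx6 UMI. Syt3 passed at P1 but not at P5, with 26.9 against 12.9 CPM at P1, and Syt9, a calcium sensor close to Syt1 and Syt2, at P5 but not at P1, with 10.2 against 2.16 CPM.

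Past 2-fold lower in both libraries were Unc13c, Sv2c, Rab31 and Stxbp4. Unc13c was at 24.9 CPM at P1 and 26.5 CPM at P5 in Nos1 cells against 52.7 and 135 CPM in Lhx6 cells, with log2 ratios of -1.05 (-1.54 to -0.65) and -2.30 (-2.78 to -1.95). From P1 to P5 its log2 ratio was 0.09 (-0.50 to 0.68) in Nos1 cells, while it rose in Lhx6 cells. Sv2c was at 17.3 and 18.3 CPM against 36.2 and 66.5 CPM, with log2 ratios of -1.03 and -1.80 (-2.39 to -1.37). The P1 calls of both were lost when Nos1 cells had also to hold an Lhx6 UMI, at -0.997 for Unc13c and -0.90 for Sv2c, and that of Unc13c was -0.73 in thinned cells. Rab31 was at -1.50 and -1.19. Its P5 value was -0.97 in cells with over 1000 genes and under 5% mitochondrial UMIs, and ran from -1.88 to -0.75 over the alternatives. At P5 a Rab31 UMI was in 7 of 547 Nos1 cells and 83 of 1874 Lhx6 cells.

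Syt12, counted among the lower members at both stages, had 0 UMIs in Nos1 cells at each. At P5, against 34 UMIs in Lhx6 cells, it was at least 2.40-fold lower, as set by the level of 3 UMIs, while at P1, against 11 UMIs, no lower level was shown. Syt17, Rab36, Stxbp6 and Snap23 were past 2-fold lower at P1 but not at P5, and Syt2 and Syt10 at P5 but not at P1. Rab36 was at 6.6 against 15.7 CPM at P1 and 12.7 against 23.7 CPM at P5, where its log2 ratio was -0.84 (-1.55 to -0.29), and the difference between libraries was not tested.

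The core genes Snap25, Cplx1 and Rab3b passed the line at P5 and not at P1. Snap25 was at 114 CPM in Nos1 cells and 364 CPM in Lhx6 cells at P5, a log2 ratio of -1.67 (-1.88 to -1.49), after -0.67 (-0.80 to -0.53) at P1. With at least 2 Nos1 UMIs required it was -2.05 at P5 and -1.10 at P1. Cplx1 was at 222 against 452 CPM at P5, a log2 ratio of -1.02 (-1.17 to -0.88), and -0.45 at P1. Rab3b was at 96.3 against 203 CPM, a log2 ratio of -1.07 (-1.30 to -0.86), and -0.75 at P1. With an Lhx6 UMI required of Nos1 cells, the P5 ratio was -1.58 for Snap25, while Cplx1, at -0.93, and Rab3b, at -0.98, fell inside the line.

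Vamp2, Cplx2 and Syt1 stayed inside the 2-fold line at P5. Vamp2 had a log2 ratio of -0.33, Cplx2 of -0.14 and Syt1 of 0.31 (0.27 to 0.35), the last higher in Nos1 cells. Over the core, 1 gene was higher and 6 lower at P5 in Nos1 cells, beside 4.16% and 6.43% of all genes tested. The core median was -0.21, against -0.07 for all genes. Of the 6 lower core genes, Cplx1, Rab3b and Syt2 fell inside the line under some alternative. Of the 37 pathway genes outside the pattern none was higher at P5 and 2 were lower, the release factors Cadps2, at 2.04 against 12.5 CPM, and Doc2b, at 8.15 against 17.5 CPM.

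**Figure D4:**
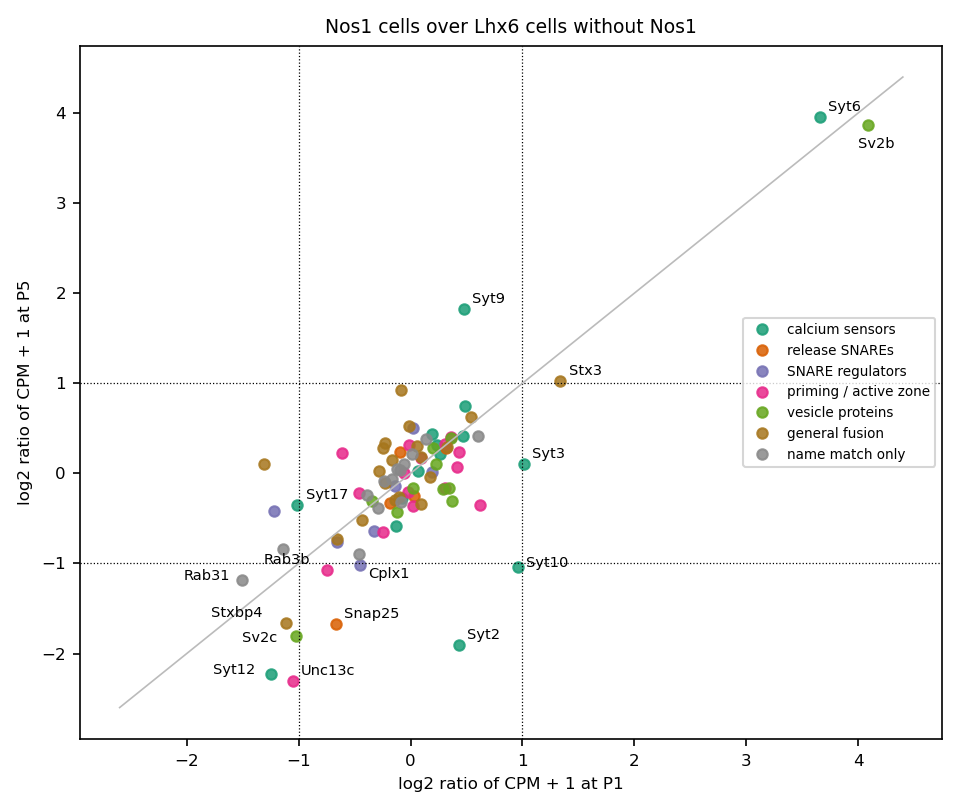
Log2 ratio of CPM + 1, Nos1 cells over Lhx6 cells, of each measured member at P1 (horizontal) and P5 (vertical), coloured by role, with dotted lines at 2-fold and a grey line of equal ratios. Syt6 and Sv2b stand alone at the upper right, Stx3 lies near the line of 2-fold, and Snap25, Unc13c and Sv2c lie farther below 0 at P5 than at P1.

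Variation among interneurons was read by splitting Lhx6 cells on Reln, a secreted glycoprotein gene used as a marker of MCs among others. There were 1196, 636 and 1046 Reln cells and 2073, 970 and 828 Reln-negative cells in stage order. The Reln cells were deeper, with medians of 6622, 5681.5 and 5548 UMIs against 5411, 3165.5 and 3543.5. At P5, 5 measured members were past 2-fold higher in Reln cells and none lower, beside 2.38% and 3.11% of all genes tested, with medians of 0.06 and -0.03. Without mitochondrial and ribosomal protein genes in the totals, and also with cells averaged, 5 were higher and 1 lower, or 83.3% higher among the calls in place of 100%.

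The 5 were Unc13c, Synpr, Cplx2, Rab3d and Syt2. Unc13c was at 186 CPM in Reln cells and 38.5 CPM in Reln-negative cells at P5, a log2 ratio of 2.25 (2.01 to 2.56), after 86.3 against 12.1 CPM at P1 and 6.33 against 2.47 CPM at E16.5. Reln cells were the higher group in every library. Synpr was at 287 against 91.2 CPM at P5, a log2 ratio of 1.64 (1.47 to 1.84), after 93.6 against 20.4 CPM at P1 and 5.87 against 2.87 CPM at E16.5. In the Reln-negative cells too both genes were lowest at E16.5 and highest at P5.

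Cplx2 parted later. In the E16.5 library it was at 133 CPM in Reln cells and 119 CPM in Reln-negative cells, at P1 at 423 and 289 CPM, and at P5 at 1424 and 680 CPM, where the log2 ratio was 1.06 (1.00 to 1.13). These 3 genes stand on the MC list the study made from these cells, so their difference here is not independent evidence. Rab3d, a RAB3 of secretory granules, was at 38.8 against 17.7 CPM at P5. In cells thinned to 2000 UMIs the P5 log2 ratios were 2.20 for Unc13c, 1.75 for Synpr and 1.10 for Cplx2. The Reln split was set on the counts before thinning, so the groups themselves still depend on depth.

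Other members stayed inside the 2-fold line at P5. Vamp2 was at 1056 CPM in Reln cells and 985 CPM in Reln-negative cells at P5. Rab3b was at 243 against 120 CPM at P1, a log2 ratio of 1.01, and at 229 against 157 CPM at P5, a log2 ratio of 0.54. Syt17 lay the other way at P5, at 32.0 against 62.6 CPM, a log2 ratio of -0.95 (-1.26 to -0.68) that stayed inside the 2-fold line. Of the pathway genes outside the pattern, 1 of 37 passed at P5, beside 2.38% higher and 3.11% lower among all genes tested. This was Cadps2, at 4.64 CPM in Reln cells against 27.3 CPM in Reln-negative cells.

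**Figure D5:**
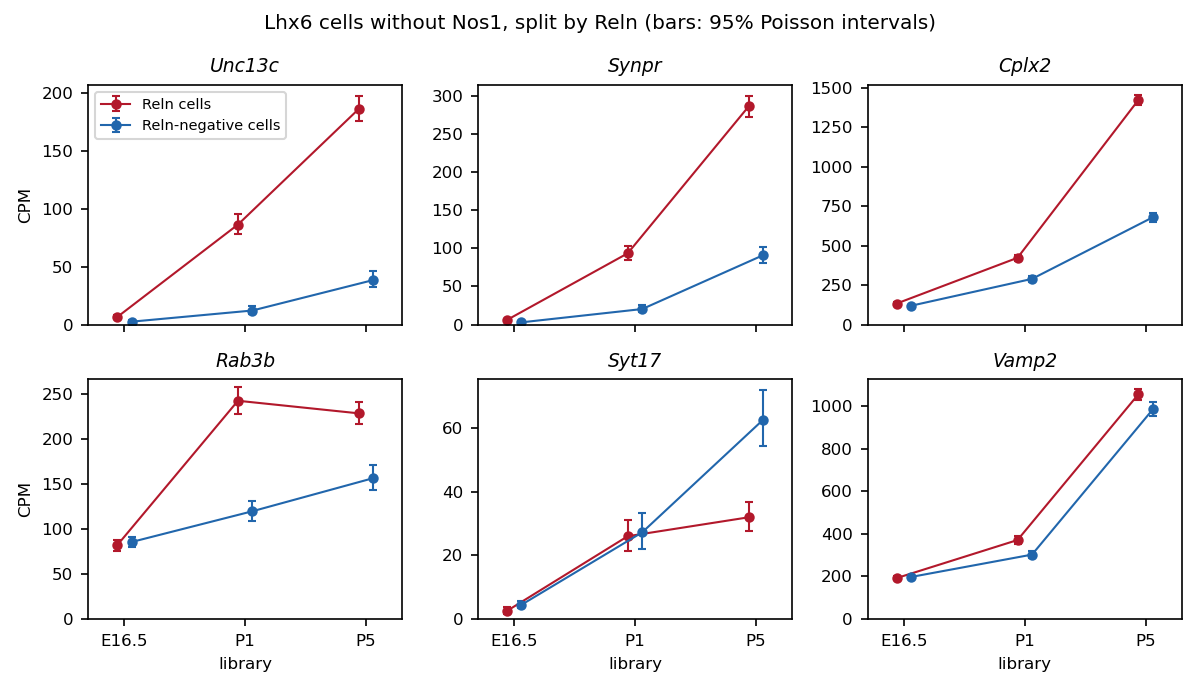
CPM of 6 members in Reln cells (red) and Reln-negative cells (blue) among Lhx6 cells of each library, with exact 95% Poisson intervals. Unc13c is past 2-fold higher in Reln cells in each library, Synpr at P1 and P5, and Cplx2 at P5. Rab3b is past 2-fold higher at P1 and still higher at P5, inside the line, with a log2 ratio of 0.54. Syt17 is lower in Reln cells at P5, and Vamp2 runs close in both, at 1056 and 985 CPM at P5.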

How the data were processed

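Gene by cell UMI counts were deposited by the authors as raw matrices, 1 per stage. Per the submitters' processing notes and the file headers, Cell Ranger, in version 3.0.2 for the P1 library and 3.1.0 for the others, with STAR aligned reads to GRCm38 and kept reads of a single gene. The kit counts transcript ends, and how strand was handled is not given in the sources used here, so antisense partners may share counts. No cell was normalized before deposit.

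Counts were summed over the cells of a population in each library and divided by the total (CPM). Genes with at least 30 UMIs over the 3 libraries in kept cells were compared on log2(CPM + 1), and a call is a 2-fold difference. Poisson and conditional binomial intervals are exact, at 95%, and cover counting error only. With 1 library per stage no test across samples exists. No doublet caller was run. Genes are named if they are in the core list, among the 6 largest rises or falls of P5 over E16.5 in Lhx6 cells, or among the 6 highest or lowest in Nos1 over Lhx6 cells at both P1 and P5, with 20 CPM or more in a group compared. A few genes of the core and marker lists are not reported here by name, while counts over the lists include them. Neurod6 cells have at least 2 Neurod6 UMIs and no Lhx6 UMI. Members, classes and lists were chosen with earlier results of these data known. The scripts were tested on simulated data. Alternatives changed cell filters, gates, scaling, pseudocount, UMI minimum and depth. Thinned cells kept the population set by their full counts. Shares of all genes printed beside counts are for the main setting. Promoter sequences come from RefSeq (GRCm38.p6), and gene positions from GENCODE M21. Python 3.11.15, numpy 2.4.6, scipy 1.17.1, pandas 2.3.3 and matplotlib 3.10.9 were used.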

Additional observations from a re-analysis of the deposited data

Results flagged for a closer look

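A few members lay on opposite sides of equality in the P1 and P5 libraries, with the counting interval of each library on its own side of 0. None of these differences reached 2-fold, and with 1 library per stage the difference between libraries was not tested. For Nos1 cells over Lhx6 cells, synaptophysin and its relatives were higher in Nos1 cells at P1 and lower at P5. In the order P1 and P5, log2 ratios were 0.34 and -0.17 for Syp, 0.37 and -0.31 for Synpr, and 0.29 and -0.17 for Syngr1. For Reln cells over Reln-negative cells, Cplx1 had log2 ratios of 0.37 at P1 and -0.30 at P5, and Stxbp6, which binds syntaxin, of 0.34 and -0.21. Reln cells were deeper than Reln-negative cells in both libraries, and the part of depth in these values was not tested.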

How the results depend on the processing

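No paired analysis was possible because each stage is 1 library and the labels carry no replicate numbers, and for the same reason no library could be left out. Over the alternatives run, the count of measured members past 2-fold ran from 40 to 48 for P5 over E16.5 in Lhx6 cells (45 as reported), from 19 to 35 for P1 over E16.5 (27) and from 31 to 47 for P5 over E16.5 in Nos1 cells (38). Counts that moved by over 1.5 times were these. For P5 over P1, Lhx6 cells gave 36 with over 1000 genes and under 5% mitochondrial UMIs required (23 as reported), and Nos1 cells gave 27 when thinned and 26 with the median ratio (16). A pseudocount of 5 gave 5 at P1 (13) and 9 at P5 (14) for Nos1 over Lhx6 cells, and 3 for Reln over Reln-negative cells (5). That last count was 8 with the stricter cell filter, 8 with a pseudocount of 0.1 and 9 with at least 2 Reln UMIs. Shares of all genes under these alternatives are not given, so the counts do not tell a move of the members from a move of all genes. The causes were not tested. Of the named members Rab31 alone changed sign past 2-fold under an alternative, in Nos1 cells for P5 over E16.5, to a log2 ratio of 1.77 when thinned. A Rab31 UMI was then in 0 of 65 cells at E16.5 and 2 of 414 at P5, so that value is set by the added 1 CPM and shows no reversal. Among named members past 2-fold, 3 of 28 fell inside the line under some alternative for P5 over E16.5 in Lhx6 cells (Sv2b, Syt2 and Vamp1), 9 of 24 in Nos1 cells, 4 of 8 at P1 (Rab36, Sv2c, Syt17 and Unc13c) and 5 of 10 at P5 (Cplx1, Rab31, Rab3b, Stx3 and Syt2) for Nos1 over Lhx6 cells, and 1 of 4, Syt2, for the Reln split. Depth limits the small groups, as 3 UMIs equal 5.05 CPM in E16.5 Nos1 cells and 6.51, 16.4 and 51.6 CPM in Neurod6 cells in stage order, against 0.141 CPM in E16.5 Lhx6 cells.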

Other observations

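The Neurod6 cells that came through the sort gave a further set of values for the machinery, with 35, 24 and 13 cells in stage order, of which 13, 8 and 0 were also Nos1 cells. The share of them with an Sv2b UMI was 5.71%, 41.7% and 69.2%, against 4.48%, 7.37% and 11.5% of Nos1 cells and 0.0306%, 0.249% and 0.534% of Lhx6 cells. Syt6 was seen in 8.57%, 4.17% and 7.69% of Neurod6 cells, whose median depths were 12405, 6201.5 and 4954 UMIs. Only counting error is covered for so few cells, and the values are given as a description.

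In the E16.5 library, Nos1 cells over Lhx6 cells had log2 ratios of 2.57 for Syt6, 1.45 for Stx3, 0.65 for Cplx1 and 0.71 for Cplx2. The complexins thus lay on the other side of equality from P5, where Cplx1 was at -1.02 and Cplx2 at -0.14. In the E16.5 library the excitatory markers summed to 675 CPM in Nos1 cells against 8.90 CPM in Lhx6 cells, and their part in these values was not tested.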
